A study of Mus musculus with 6 samples.

Results

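The genes described here serve MHC class II antigen presentation: H2-Aa, H2-Ab1, H2-Eb1, H2-DMa, H2-Oa, H2-Ob, Cd74 and Ciita. These 8 genes, of 18193 measured, were taken by symbol. For each gene, among the probe sets annotated to it alone, the one brightest on average over the 6 arrays stands for it, and the other 8 probe sets of these genes are given as well. The samples were whole mammary glands of virgin female mice of the FVB/N background, aged 4 months and untreated, in 2 groups. One group of 3 glands came from Cav-3 knockout mice (Cav-3 KO), which lack caveolin-3, a caveola coat protein of muscle, and the other of 3 glands from wild-type mice (WT). The labels do not say if the glands of a group came from separate mice, so the p-values below measure only the spread between these samples, which may be technical. Each gland was read on 1 single-channel array, and values are log2 signals after the authors' RMA processing. Array medians lay between 5.77 and 5.80.

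Class II molecules are pairs of an alpha and a beta chain that carry peptides from the endosomes to the cell surface, where CD4 T cells read them. In the mouse the I-A molecule is made of H2-Aa and H2-Ab1, and H2-Eb1 encodes the beta chain of I-E. Cd74, the invariant chain, plugs the groove of new molecules, and H2-DM, of which H2-DMa is the alpha chain, swaps the remnant of that plug for antigen peptide. H2-O, made of H2-Oa and H2-Ob, restrains H2-DM and is made chiefly by B cells, thymic epithelium and some dendritic cells. Ciita is the main coactivator of the I-A and I-E genes and Cd74 in B cells, dendritic cells, macrophages and cells exposed to interferon gamma. H2-Oa and H2-Ob keep to the narrower set of cells given above. Ciita acts through proteins that sit on short paired boxes, called X and Y, just upstream of class II genes.

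Promoter windows of the members with such a pair of boxes show the shared control element of the family. A RefSeq promoter (250 bases before to 50 after a start site, assembly GRCm38.p6, C57BL/6J) was listed for 5 members, 6 promoters in all, and H2-Ab1, Cd74 and Ciita had no entry. Each window below runs 5′ to 3′ on the gene's strand, from 150 to 31 bases before the start site. Capitals mark TGATTGG, which holds the inverted CCAAT of the Y box, and GCAAC, the letters shared by these X boxes. The windows lie at chr17:34287854-34287973 (minus strand, H2-Aa), chr17:34305717-34305836 (plus strand, H2-Eb1), chr17:34092229-34092348 (plus strand, H2-Oa) and chr17:34238755-34238874 (plus strand, H2-Ob).
H2-Aa: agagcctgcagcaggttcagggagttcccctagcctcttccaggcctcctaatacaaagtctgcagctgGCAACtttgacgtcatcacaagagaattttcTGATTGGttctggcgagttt
H2-Eb1: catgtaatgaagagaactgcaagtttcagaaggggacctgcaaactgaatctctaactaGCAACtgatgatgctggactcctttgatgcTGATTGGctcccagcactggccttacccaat
H2-Oa: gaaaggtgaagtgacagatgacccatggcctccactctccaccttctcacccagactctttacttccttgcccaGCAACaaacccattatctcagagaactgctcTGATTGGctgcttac
H2-Ob: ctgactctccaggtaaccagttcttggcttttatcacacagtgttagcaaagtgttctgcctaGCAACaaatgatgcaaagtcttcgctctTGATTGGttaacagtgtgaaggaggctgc

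The letters were chosen by reading these windows, so their presence in them is a description. GCAAC followed on the same strand by TGATTGG, with 20 to 35 bases between, was found in the promoters of 4 of the 5 members, with 26 bases between in H2-Aa and H2-Oa, 25 in H2-Eb1 and 23 in H2-Ob. Both strands of all 32851 listed promoters were searched, and 47 (0.143%) held that pair. TGATTGG alone was found in 7.82% of promoters and GCAAC alone in 35.2%. Neither of the 2 listed promoters of H2-DMa held the pair. The search took exact letters, so a pair of boxes spelled otherwise is missed. Among related class II genes outside the members, the promoter of H2-Eb2 held the pair. Those of H2-DMb1 and H2-DMb2 held TGATTGG without GCAAC. Of the 4 members with the pair, H2-Oa and H2-Ob passed the test below as lower in Cav-3 KO glands, while H2-Aa and H2-Eb1 did not pass.

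The genes of H2-O and the coactivator gene Ciita were lower in Cav-3 KO glands, while the I-A genes, Cd74, H2-Eb1 and H2-DMa did not pass the test. Of the 8 members 3 were lower (H2-Oa, H2-Ob and Ciita) and 0 higher by limma at an adjusted p under 0.05, against 8.51% of all genes lower and 7.65% higher. At an unadjusted p under 0.05, 4 members were lower and 0 higher, against 17.3% of all genes lower and 16.3% higher. All 8 differences were negative, with a median of −0.23 on the log2 scale, against −0.009 over all genes. The 3 Cav-3 KO arrays all lay below the 3 WT arrays for 4 members, H2-Eb1 among them, as they did for 19.8% of all genes, and above them for 0 members, against 18.5% of all genes. In whole tissue, fewer cells of a type and less RNA per cell cannot be told apart.

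**Figure D1:**
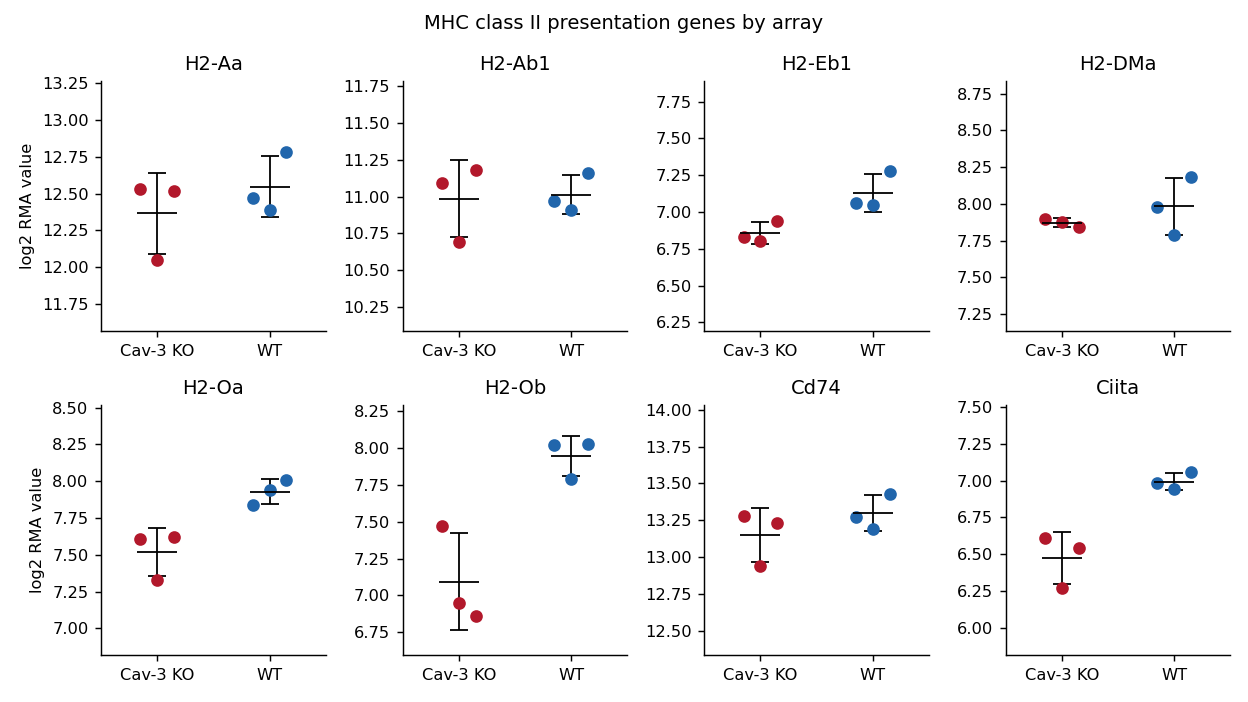
Log2 RMA value (vertical axis, 1.7 units tall in every panel, not starting at 0) of the 8 class II genes in 3 Cav-3 KO and 3 WT arrays, with points for arrays and bars for mean ± SD. The groups are separate for H2-Eb1, H2-Oa, H2-Ob and Ciita and overlap for H2-Aa, H2-Ab1, H2-DMa and Cd74.

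H2-Ob, the H2-O beta chain, had log2 values of 7.47, 6.95 and 6.86 in Cav-3 KO arrays 1 to 3, against 8.02, 7.79 and 8.03 in WT arrays 1 to 3. Every Cav-3 KO array lay below every WT array. H2-Ob averaged 7.09 ± 0.33 in Cav-3 KO and 7.95 ± 0.14 in WT (SD, n = 3 each), a log2 difference of −0.86 ± 0.17 (SE), or 1.81-fold lower (limma, adjusted p = 0.0170).

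H2-Oa, the H2-O alpha chain, had 7.61, 7.33 and 7.62 in Cav-3 KO arrays, against 7.84, 7.94 and 8.01 in WT arrays. The groups did not overlap, with the lowest value in Cav-3 KO array 2. Its log2 difference was −0.41 ± 0.11 (SE), 1.33-fold lower (limma, adjusted p = 0.0480), which lies close to the threshold.

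Ciita, on chromosome 16 and so apart from the H2 genes of chromosome 17, had 6.61, 6.27 and 6.54 in Cav-3 KO arrays, against 6.98, 6.94 and 7.06 in WT arrays. Again no Cav-3 KO array reached the WT range. The log2 difference was −0.52 ± 0.11 (SE), 1.44-fold lower (limma, adjusted p = 0.0217). The other 2 probe sets of Ciita had log2 differences of −0.50 ± 0.17 and −0.21 ± 0.10 (SE), groups that did not overlap, and adjusted p of 0.103 and 0.210.

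The 3 calls depended on single arrays. The number of members lower was 2, 2 and 0 without Cav-3 KO 1, 2 or 3, and 0, 1 and 0 without WT 1, 2 or 3. H2-Ob had limma adjusted p of 0.0632 without Cav-3 KO 3, 0.0569 without WT 1 and 0.0641 without WT 3, at log2 differences of −0.74, −0.82 and −0.81. Ciita had 0.0602 without Cav-3 KO 3 and 0.0625, 0.0540 and 0.0784 without WT 1, 2 or 3, at differences of −0.49 to −0.56. H2-Oa passed in 5 of 16 other settings. By a two-sided exact permutation test over the 20 assignments of the arrays, each of these genes gave p = 0.1, the smallest that this design allows.

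The I-A genes showed overlapping groups. H2-Aa had log2 values of 12.53, 12.05 and 12.52 in Cav-3 KO arrays, against 12.47, 12.39 and 12.78 in WT arrays. Its log2 difference was −0.18 ± 0.16 (SE, limma adjusted p = 0.530), with a 95% interval of −0.55 to 0.19. H2-Ab1 had 11.09, 10.69 and 11.18 in Cav-3 KO arrays, against 10.97, 10.91 and 11.16 in WT arrays. Its difference was −0.03 ± 0.14 (SE, limma adjusted p = 0.931), with a 95% interval of −0.36 to 0.30. That interval overlaps the one of Ciita, −0.78 to −0.27. Cav-3 KO array 2 was the lowest of the 6 arrays for both, and without it the difference of H2-Ab1 was 0.12 (limma adjusted p = 0.545).

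**Figure D2:**
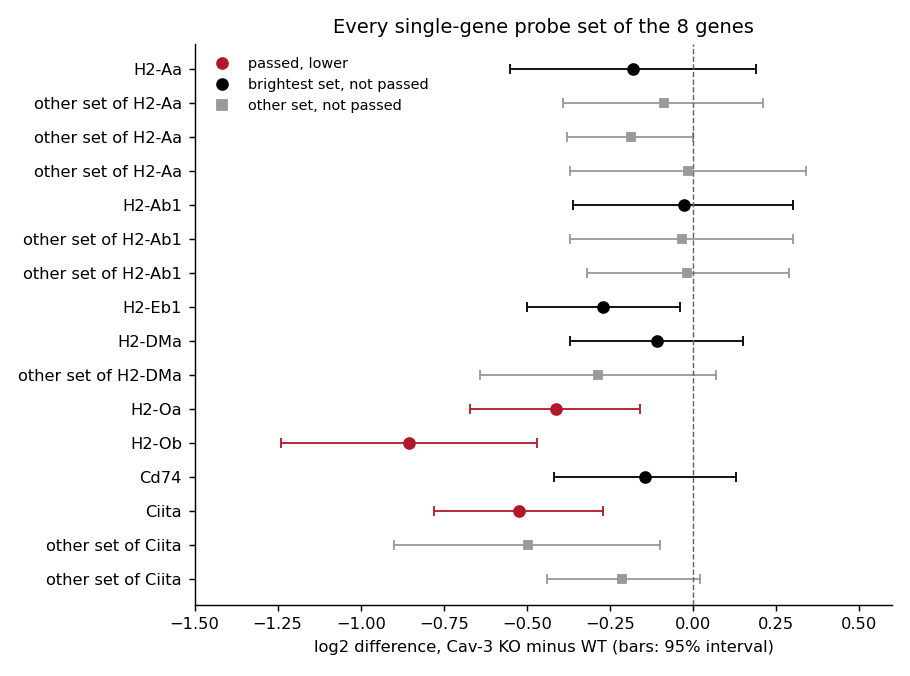
Log2 difference, Cav-3 KO minus WT (horizontal axis), with its 95% interval from limma for all 16 single-gene probe sets of the 8 genes. All lie below 0, and the 3 that passed, in red, are the shown sets of H2-Oa, H2-Ob and Ciita.

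H2-Eb1, the I-E beta chain gene, had 6.83, 6.80 and 6.94 in Cav-3 KO arrays, against 7.06, 7.05 and 7.28 in WT arrays. The groups did not overlap, but the log2 difference of −0.27 ± 0.10 (SE) missed the threshold (limma adjusted p = 0.121). Over the 16 other settings its adjusted p lay between 0.0913 and 0.315.

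H2-DMa, the peptide exchange alpha chain gene, had 7.90, 7.88 and 7.84 in Cav-3 KO arrays, against 7.98, 7.79 and 8.18 in WT arrays. The Cav-3 KO values lay inside the WT range. Its log2 difference was −0.11 ± 0.11 (SE, limma adjusted p = 0.594; 95% interval −0.37 to 0.15).

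Cd74, the invariant chain gene, had 13.28, 12.94 and 13.23 in Cav-3 KO arrays, against 13.27, 13.19 and 13.43 in WT arrays. The groups overlapped, and the log2 difference was −0.15 ± 0.12 (SE, limma adjusted p = 0.492; 95% interval −0.42 to 0.13). The probe sets of Cd74 and H2-Aa were among the brightest signals, at percentiles 99.9 and 99.5 of all probe sets by mean signal, and whether they were near saturation was not tested.

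The other 8 probe sets of the members had log2 differences between −0.50 and −0.01, all negative, and 0 passed by limma (2 had an unadjusted p under 0.05). They belong to H2-Aa (3 sets), H2-Ab1 (2), H2-DMa (1) and Ciita (2). All 4 sets of H2-Aa can match transcripts of other genes, as their suffixes show. So can the shown set and another set of H2-Ab1, and the other set of H2-DMa. The last set of H2-Ab1, without such a suffix, differed by −0.02 on the log2 scale. The promoter reference is C57BL/6J and the strain behind the array's probe sequences was not examined, while MHC genes differ between strains. Across members the arrays moved together within a genotype: Cav-3 KO 2 was the lowest of the 6 arrays for 6 members and WT 3 the highest for 7.

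Differences between members within each array are given for 3 contrasts, chosen after the values were seen. They set genes that passed against genes that did not, or Cd74 against I-A, so they are a description and carry no test. The mean of H2-Oa and H2-Ob minus the mean of H2-Aa and H2-Ab1 was −4.26, −4.23 and −4.61 on the log2 scale in Cav-3 KO arrays, against −3.79, −3.78 and −3.95 in WT arrays. The groups did not overlap, at a change of −0.53, a direction that the choice of genes fixes. Ciita minus the same mean was −5.20 ± 0.11 in Cav-3 KO and −4.78 ± 0.11 in WT (SD, n = 3 each), a change of −0.42 with no overlap. Cd74 minus that mean was 1.48 ± 0.09 in Cav-3 KO and 1.52 ± 0.05 in WT (SD, n = 3 each), with overlap.

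The rest of the pathway was read in 7 lists. Over all genes 8.51% were lower and 7.65% higher by limma, the shares beside which each list count below stands. In the loading list, which joins H2-M and I-E partners, 3 of 4 genes had a probe set annotated to them alone. H2-Eb2, a second I-E beta chain gene, had log2 values of 5.66, 5.77 and 5.81 in Cav-3 KO arrays, against 6.10, 6.18 and 6.05 in WT arrays. It fell by 0.36 ± 0.09 (SE, limma adjusted p = 0.0353), and 0 list members passed with any 1 array left out. H2-DMb2, an H2-M beta chain gene, differed by −0.08 ± 0.11 (limma adjusted p = 0.696). By its suffix, that set can match transcripts of other genes. H2-Ea, the I-E alpha chain gene and a pseudogene in the C57BL/6J reference, differed by −0.21 ± 0.13 (limma adjusted p = 0.347). Whether these FVB/N glands make a working H2-Ea chain or any I-E molecule was not tested. Expression of H2-DMb1 was not analysed here.

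Endosomal enzymes and carriers that supply peptide and cut the invariant chain did not pass. Of 11 genes of peptide supply 0 were lower and 0 higher by limma, and 2 were lower and 2 higher at an unadjusted p under 0.05, with a median log2 difference of −0.06. Cav-3 KO arrays all lay below WT arrays for 3 of them and above for 2, where 19.8% and 18.5% of all genes did so. Calls appeared in 6 of 16 other settings: 1 lower and 2 higher with the filter on dim sets, 1 lower and 1 higher with probe sets averaged per gene or with repeated quantile normalization, 1 higher with median centring, and 1 lower with array weights or the trended robust prior. Ifi30, a thiol reductase of the endosome, had 11.20, 11.42 and 11.34 in Cav-3 KO arrays, against 11.06, 10.92 and 10.97 in WT arrays (log2 difference 0.34 ± 0.09 SE, limma adjusted p = 0.0545). Ctsh, a cathepsin, differed by 0.49 ± 0.14 (limma adjusted p = 0.0580). Ctsb and Ctsd, further cathepsins, differed by −0.33 ± 0.09 and −0.37 ± 0.12 (limma adjusted p = 0.0549 and 0.0817). Ctss, the cathepsin that trims the invariant chain in B cells and dendritic cells, differed by −0.04 ± 0.09.

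Genes of surface turnover and costimulation had a median log2 difference of −0.41. Of 9 genes 4 were lower and 0 higher. Marchf1, the ubiquitin ligase that removes class II molecules from the surface, had 6.34, 6.67 and 6.39 in Cav-3 KO arrays, against 7.61, 7.31 and 7.29 in WT arrays. It fell by 0.94 ± 0.13 on the log2 scale (SE), 1.92-fold (limma adjusted p = 0.00536), with groups far apart. Cd40, the receptor through which T cells license presenting cells, fell by 0.64 ± 0.11 (limma adjusted p = 0.0117). The checkpoint ligand genes Cd274 and Pdcd1lg2 fell by 0.66 ± 0.17 and 0.42 ± 0.09 (limma adjusted p = 0.0456 and 0.0236). With 1 array left out, between 2 and 4 of the 9 were lower, with 2 without Cav-3 KO 3 or WT 3.

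**Figure D3:**
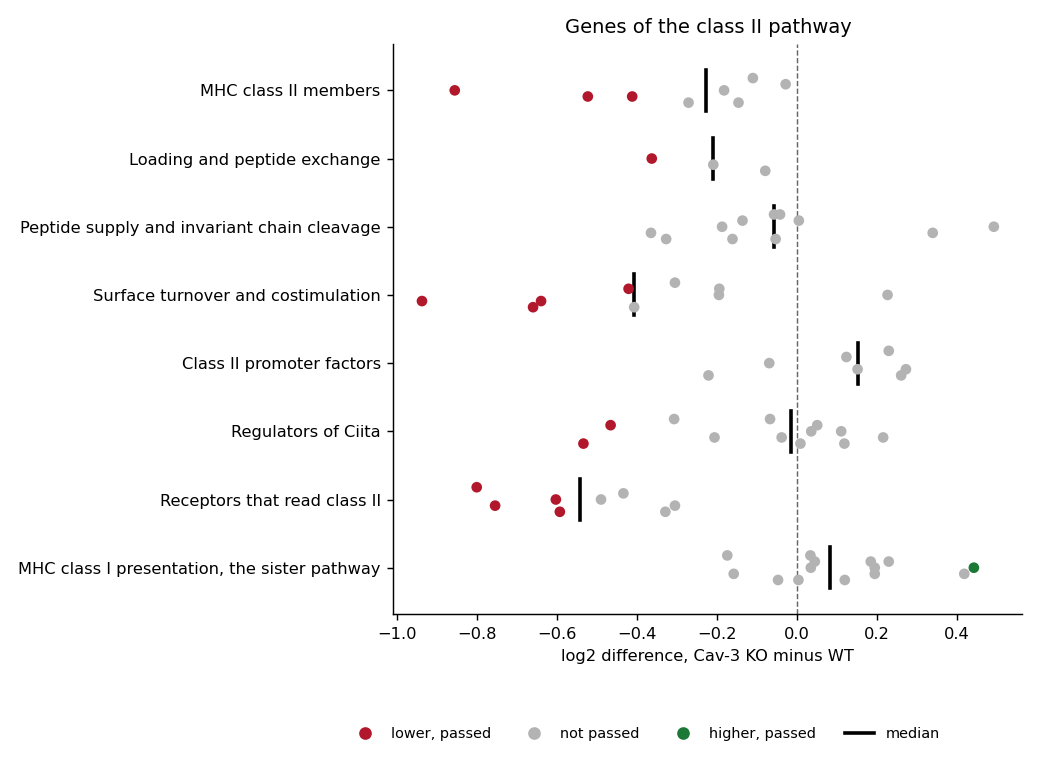
Log2 difference, Cav-3 KO minus WT (horizontal axis), of each measured gene of the 8 members and of the 7 pathway lists, with a vertical bar at each median. The list for surface turnover and the one labelled receptors that read class II have medians of −0.41 and −0.54, with 1 gene of surface turnover right of 0. The promoter factors have a median of 0.15 and class I presentation one of 0.08.

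The factors that bind the X and Y boxes did not pass. Of 7 genes 0 were lower and 0 higher by limma, with 0 lower and 2 higher at an unadjusted p under 0.05, and a median log2 difference of 0.15. Rfx5 and Rfxap, subunits of the X box complex, differed by 0.23 ± 0.10 and 0.27 ± 0.11 (SE, limma adjusted p = 0.182 and 0.158), while Rfxank, the third subunit, differed by −0.22 ± 0.10 (limma adjusted p = 0.200). Creb1, which binds the second part of the X box, differed by 0.26 ± 0.10 (limma adjusted p = 0.118).

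Of 12 measured regulators of Ciita 2 were lower and 0 higher, against 8.51% of all genes lower and 7.65% higher, with a median of −0.01. Irf8, a transcription factor of B cells, dendritic cells and macrophages, had 9.34, 9.19 and 9.43 in Cav-3 KO arrays, against 9.87, 9.83 and 9.86 in WT arrays. It fell by 0.53 ± 0.09 (SE, limma adjusted p = 0.0119). Prdm1, a repressor of Ciita in plasma cells, fell by 0.47 ± 0.11 (limma adjusted p = 0.0313). Without Cav-3 KO 1 or 3, or without any 1 WT array, 1 regulator was lower. Ifng, the inducer of Ciita outside professional presenting cells, was dim, with 3.06, 3.45 and 3.36 in Cav-3 KO arrays and 3.13, 3.18 and 3.21 in WT arrays, and the groups overlapped. Spi1, the myeloid and B cell factor PU.1, differed by 0.01 ± 0.08.

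On the T cell side, the list labelled receptors that read class II holds Cd4 and Lag3. It also holds Cd3 chains, Cd247, Cd28 and Ctla4, which do not themselves bind class II. All 8 of its genes had negative differences, 4 were lower and 0 higher, and the median was −0.54. Cd28 fell by 0.76 ± 0.14, Cd3g by 0.80 ± 0.19, Cd247 by 0.59 ± 0.16 and Lag3, an inhibitory receptor for class II, by 0.60 ± 0.13 on the log2 scale (SE, limma adjusted p = 0.0148, 0.0316, 0.0486 and 0.0232). Cd4 itself had 7.06, 6.91 and 7.18 in Cav-3 KO arrays, against 7.45, 7.21 and 7.48 in WT arrays, a difference of −0.33 ± 0.11 (limma adjusted p = 0.105) with separate groups. The count was 1 without Cav-3 KO 1, Cav-3 KO 3 or WT 3, and 2 without Cav-3 KO 2 or WT 1.

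Class I presentation, the parallel pathway for cytosolic peptides, had a median of 0.08. Of 14 measured genes 0 were lower and 1 higher, against 8.51% of all genes lower and 7.65% higher. At an unadjusted p under 0.05, 0 were lower and 2 higher, against 17.3% and 16.3% of all genes. Tap2, a subunit of the peptide pump, had 9.48, 9.50 and 9.56 in Cav-3 KO arrays, against 9.15, 8.84 and 9.22 in WT arrays, and rose by 0.44 ± 0.11 (SE, limma adjusted p = 0.0433). Tap1, its partner, differed by 0.42 ± 0.16 (limma adjusted p = 0.127). B2m, the class I light chain, and H2-K1, a heavy chain, differed by −0.05 ± 0.13 and 0.00 ± 0.10. Without Cav-3 KO 1 the list again had 1 gene higher, a count that does not show which gene passed. No gene of the list, Tap2 included, passed as higher without any other 1 array. The same held with repeated quantile normalization, the replicate block or the muscle covariate.

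B cell markers were lower in Cav-3 KO glands. Of 16 measured B cell markers 16 were lower, with a median log2 difference of −0.78. The mean of the list was 7.68, 7.41 and 7.47 in Cav-3 KO arrays, against 8.23, 8.16 and 8.37 in WT arrays, without overlap. Pou2af1, a B cell coactivator, fell by 0.88 ± 0.09, Bank1, an adaptor of B cell receptor signalling, by 0.79 ± 0.09, Ms4a1, the surface antigen CD20, by 0.88 ± 0.11, and Fcer2a, the low-affinity IgE receptor, fell by 0.996 ± 0.13 (SE, limma adjusted p = 0.00189, 0.00279, 0.00378 and 0.00445). Between 7 and 14 markers were lower with 1 array left out: 14, 11 and 7 without Cav-3 KO 1, 2 or 3, and 8, 11 and 9 without WT 1, 2 or 3.

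The T cell list shares Cd3d, Cd3e, Cd3g, Cd4 and Cd28 with the receptor list above. Of 13 measured T cell markers 8 were lower and 0 higher, with a median of −0.53 and list means of 7.21, 7.15 and 7.31 in Cav-3 KO arrays, against 7.67, 7.54 and 7.91 in WT arrays. The count fell to 1 without Cav-3 KO 3 and lay between 3 and 5 without any other 1 array. Of 10 general leukocyte genes 2 were lower and 1 higher, against 8.51% of all genes lower and 7.65% higher, with a median of −0.40. Ptprc, the CD45 antigen, fell by 0.48 ± 0.10 and Cd53 by 0.60 ± 0.09, while Cytip rose by 0.98 ± 0.12 (SE). Without Cav-3 KO 3, WT 2 or WT 3, 1 of the 10 was lower.

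Myeloid markers were mixed. Of 15 macrophage markers 2 were lower and 2 higher, against 8.51% of all genes lower and 7.65% higher, with a median of −0.21. List means were 9.12, 9.21 and 9.05 in Cav-3 KO arrays, against 9.43, 9.25 and 9.13 in WT arrays, so the groups overlapped. Lyve1 and Mrc1, markers of resident tissue macrophages, fell by 0.96 ± 0.20 and 0.55 ± 0.13, while the lipopolysaccharide coreceptor gene Cd14 rose by 1.41 ± 0.33 and the scavenger receptor gene Msr1 by 0.40 ± 0.09 (SE, limma adjusted p = 0.0202, 0.0325, 0.0300 and 0.0290). Cd14 had 10.70, 12.06 and 10.77 in Cav-3 KO arrays, against 9.75, 9.73 and 9.82 in WT arrays. Luminal epithelial markers rose too, as given below, and whether the Cd14 signal came from macrophages was not tested. Without Cav-3 KO 3, without WT 1 or with the skeletal muscle mean as a covariate, 0 macrophage markers passed by limma in either direction. Without Cav-3 KO 1 the counts were 1 lower and 2 higher, without Cav-3 KO 2 they were 1 and 1, and without WT 2 or WT 3 they were 1 and 2 lower with 0 higher.

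Of 12 measured dendritic cell markers 4 were lower and 0 higher, with a median of −0.17. Cd207, the langerin of Langerhans cells and some dermal dendritic cells, had 5.48, 5.25 and 5.46 in Cav-3 KO arrays, against 7.11, 6.99 and 7.21 in WT arrays. It fell by 1.71 ± 0.11 on the log2 scale (SE), 3.26-fold (limma adjusted p = 0.000488), with no overlap. Clec10a, Siglech and Xcr1, also of this list, fell by 0.75 ± 0.17, 0.47 ± 0.10 and 0.38 ± 0.10 (limma adjusted p = 0.0281, 0.0197 and 0.0398). Xcr1 was dim, at percentile 22.7 of all probe sets by mean signal. Itgax, the integrin CD11c, lay the other way at 0.38 ± 0.11 (limma adjusted p = 0.0718). The count was 1 without Cav-3 KO 3 or WT 2 and 2 without WT 1 or WT 3.

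**Figure D4:**
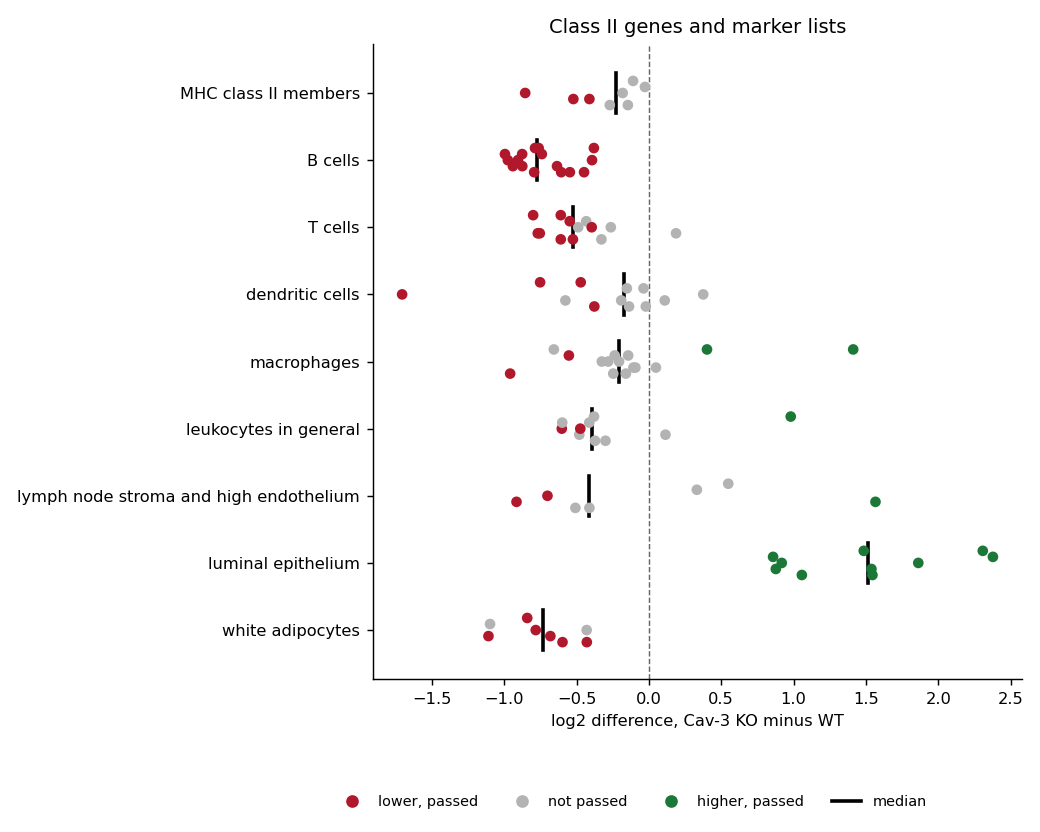
Log2 difference, Cav-3 KO minus WT (horizontal axis), of the 8 members and of the measured genes of 8 marker lists, with a vertical bar at each median. Medians are −0.23 for the members, −0.78 for B cells, −0.53 for T cells, −0.17 for dendritic cells and −0.21 for macrophages, and the members spread from −0.86 (H2-Ob) to −0.03 (H2-Ab1).

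Lymph node tissue, which can lie within a dissected gland, was read from 7 measured genes of stroma, high endothelium and lymphoid homing. Of these 2 were lower and 1 higher: Cxcl13, the chemokine that draws B cells, fell by 0.92 ± 0.15 and its receptor gene Cxcr5 by 0.70 ± 0.13, while Madcam1, an adhesion molecule of vessels, rose by 1.57 ± 0.23 (SE, limma adjusted p = 0.00866, 0.0150 and 0.00619). The list median was −0.41. Cav-3 KO arrays all lay below WT arrays for 4 of the 7 genes, as they did for 19.8% of all genes. Besides Cxcl13 and Cxcr5 these were Chst4 and Ltb, at −0.41 and −0.51 (limma adjusted p = 0.0562 and 0.0515). List means were 8.51, 8.90 and 8.57 in Cav-3 KO arrays, against 8.63, 8.66 and 8.74 in WT arrays, with overlap. That mean differed by −0.01 and takes in Madcam1, Glycam1 at 0.55 and Fcgbp at 0.33 (limma adjusted p = 0.223 and 0.628), of which Glycam1 is also a milk protein of the epithelium. The gland's own tissue also shifted: of 10 luminal epithelial markers 10 were higher, at a median of 1.51, and of 8 measured white adipocyte markers 6 were lower, at a median of −0.73. Without Cav-3 KO 3, 1 lymphoid gene and 3 adipocyte markers were lower, and without WT 1 or WT 3, 4 adipocyte markers were lower. Between 7 and 10 luminal markers were higher with any 1 array left out. The part of B cells, lymph node tissue, epithelium and fat in the members' differences was not tested.

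Set against the B cell list mean of the same array, the H2-Ob groups overlapped. H2-Ob minus that mean was −0.21, −0.46 and −0.61 on the log2 scale in Cav-3 KO arrays, against −0.20, −0.36 and −0.34 in WT arrays, a change of −0.13 with overlapping groups. For the other 7 members the Cav-3 KO arrays all lay above the WT arrays on this scale. The change was 0.21 for Ciita, 0.32 for H2-Oa and 0.46 to 0.70 for H2-Eb1, H2-Aa, Cd74, H2-DMa and H2-Ab1. The B cell list mean itself fell by 0.73, so any gene that fell by less rises on this scale by construction. The share of all genes with separate groups on this scale was not computed.

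Against the macrophage list mean, the members that overlapped were those of I-A, I-E, H2-DM, Cd74 and H2-Oa. H2-Ob minus that mean changed by −0.71 and Ciita by −0.38, each with separate groups, while H2-Oa changed by −0.27 with overlap. The changes of H2-Aa, H2-Ab1, H2-Eb1, H2-DMa and Cd74 lay between −0.13 and 0.11, all with overlap. Against the dendritic cell list mean, the groups were separate for H2-Ob at −0.53, Ciita at −0.19 and H2-DMa at 0.22. Against the general leukocyte list mean, they were separate for H2-Ob at −0.60, Ciita at −0.27 and H2-Oa at −0.16, and in the other direction for H2-Ab1 at 0.23 and H2-DMa at 0.14. The dendritic cell list mean changed by −0.33, with Cd207 at −1.71 against a list median of −0.17, and the leukocyte list mean by −0.25. A gene that fell by less than a list mean rises on that scale by construction. These relative values share the same 6 arrays and lists chosen with the results known, and are a description.

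**Figure D5:**
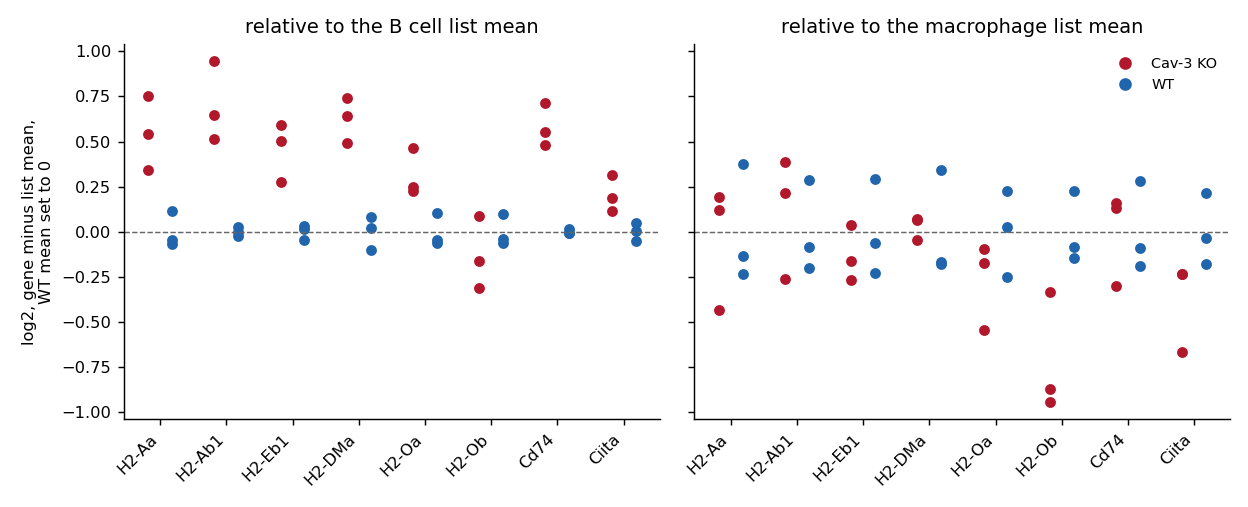
Log2 value of each member minus the mean of the B cell list (left) or the macrophage list (right) in the same array, drawn relative to the WT mean (vertical axis), with points for 3 Cav-3 KO and 3 WT arrays. On the left the groups overlap for H2-Ob alone, and on the right they are separate for H2-Ob and Ciita alone.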

How the data were processed

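Total RNA from 6 mammary glands was labelled with biotin and read on single-channel oligonucleotide arrays, per the labels' protocols. The authors deposited log2 values, 1 for every probe set on each array, which they made with RMA (background correction, quantile normalization and probe summary), per the submitters' processing notes. For RMA, no version, software or genome build is named in the labels. RMA forces 1 distribution on all arrays and compresses folds of dim sets. Of 45101 probe sets, 64 controls were left out and 45037 tested with no filter. Names came from the platform annotation (34945 sets with 1 symbol, 932 with several and not named, 9160 not listed), updated through Entrez identifiers with a RefSeq table (204 unmatched), which also held the promoters.

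Groups came from the sample titles. Cav-3 KO was compared with WT by limma 3.58.1 in R 4.3.3 (lmFit, eBayes, genotype as the only term), with Benjamini-Hochberg adjustment over all 45037 sets and a threshold of 0.05. Differences are Cav-3 KO minus WT. The number of arrays, 3 per group, limits the precision. The fit was tested on simulated data. Alternatives were array weights, a trended robust prior, other normalizations, a filter on dim sets, leaving out 1 array at a time, the replicate number as a block, other probe set rules, other thresholds and a covariate holding the mean of the skeletal muscle list. The members, lists and tests were chosen with earlier results of these data known. Named genes are the 8 members, the loading list whole and up to 4 genes of each other list by smallest p. The 5 genes nearest in profile are named too. Cd4, Ctss, Ifng, Spi1, B2m, H2-K1, Itgax, Chst4, Glycam1 and Fcgbp fall outside that rule and were added after their values were seen. List genes without a probe set of their own were not analysed here. Figures were drawn with matplotlib 3.10.9.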

Additional observations from a re-analysis of the deposited data

How the results depend on the processing

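With 3 arrays a group, leaving out 1 array moved the count of members lower from 3 to between 0 and 2, that of all genes past the threshold from 2941 to between 1235 and 3181, and the members' median log2 difference from −0.23 to between −0.29 and −0.14. At an adjusted p of 0.01, 0 members and 867 genes passed, and at 0.10, 3 members and 4466 genes. Under the other settings 2 or 3 members were lower and 0 higher. H2-Ab1 changed sign in 4 settings, to 0.034 with array weights and 0.007 with repeated quantile normalization, and without Cav-3 KO 2 or WT 3, with a range of −0.125 to 0.121 when 1 array was left out. H2-Oa missed the threshold in 11 of 16 settings (limma adjusted p between 0.0505 and 0.148). The cause was not tested. H2-Aa has no value without sets that can match transcripts of other genes. Same-numbered samples did not deviate together (correlations of −0.054, 0.185 and −0.018), so the replicate numbers were not taken as pairs. With the replicate block 2 members were lower, since H2-Oa then had a limma adjusted p of 0.0653, and 2870 genes passed.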

Other observations

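The genes whose profile over the 6 arrays lay nearest to the mean profile of H2-Oa, H2-Ob and Ciita were Sdha, Mpv17, Gnpat, Dtx1 and Epm2a, with root mean square differences of 0.043 to 0.048 on the log2 scale after each gene was centred on its own mean. Sdha, the flavoprotein of succinate dehydrogenase in mitochondria, had 11.56, 11.18 and 11.29 in Cav-3 KO arrays, against 11.85, 11.87 and 12.08 in WT arrays. Dtx1, a regulator of Notch signalling that is active in lymphocytes, had 8.04, 7.80 and 7.91 in Cav-3 KO arrays, against 8.47, 8.48 and 8.57 in WT arrays. All 5 were lower in Cav-3 KO, as a profile chosen for that shape must be.

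Among vessel genes, 2 of 10 endothelial markers were lower and 0 higher, against 8.51% of all genes lower and 7.65% higher. The median log2 difference was −0.06. Kdr, a receptor for vascular endothelial growth factor, fell by 0.50 ± 0.11 and Tek, the angiopoietin receptor, by 0.46 ± 0.10 (SE, limma adjusted p = 0.0237 and 0.0242). No endothelial marker passed without Cav-3 KO 3, WT 2 or WT 3, and 1 did without Cav-3 KO 1 or WT 1. Of 15 skeletal muscle genes 0 were lower and 0 higher by limma, with 1 lower and 0 higher at an unadjusted p under 0.05, and the list means were 4.99, 6.21 and 6.72 in Cav-3 KO arrays, against 7.54, 8.32 and 5.46 in WT arrays. The list's median of −1.42 moved to between −2.25 without WT 3, where 2 of its genes were lower, and −0.44 without WT 2, and 1 gene was lower with the filter on dim sets. With that mean as a covariate, 2 members were lower, and H2-Oa had a difference of −0.46 (limma adjusted p = 0.0809).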
